A study of Mus musculus with 6 samples.

Results

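Fat cell transcripts were examined in prostate RNA from 2 intact and 4 castrated samples of a mouse model of prostate cancer. The set held 10 adipocyte genes taken by symbol from the 24421 genes of the deposited tables, and all 10 were found: the secreted products Adipoq, Lep, Retn and Cfd, the lipid droplet proteins Plin1, Plin4 and Cidec, the uptake genes Lpl and Fabp4, and the transcription factor gene Pparg. All 6 samples shared 1 genotype, which includes PB-Cre4, a transgene in which a probasin promoter drives Cre recombinase in prostate epithelium. That promoter itself depends on androgen. The groups differed in castration status, which the labels give as Intact or Cx. The labels name prostate as the tissue and give no age, no time since castration and no account of how surrounding fat was trimmed. Nothing in them says that each sample is its own animal. The p-values therefore reflect the spread among these 6 samples, part of which may be technical.

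White fat cells store triglyceride in a single large droplet and secrete hormones. Their differentiation is driven by the nuclear receptor PPAR-gamma together with C/EBP factors, which switch on genes of the droplet coat, of fatty acid uptake and of the secreted products. The mouse prostate is embedded in fat, and some of these genes are also active elsewhere: Fabp4 in capillary endothelium and macrophages, Lpl in macrophages and muscle, and Pparg in epithelium and macrophages.

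Upstream sequences of members are shown so that the hormone genes Adipoq, Cfd and Lep and the regulator Pparg can be set beside short motifs. These are the general CCAAT box, the C/EBP palindrome and the nuclear receptor core with its direct repeat. A CCAAT mark is not read here as a site of a fat cell regulator. RefSeq promoter windows (build GRCm38.p6) were found for 8 of the 10 genes, and Lpl and Fabp4 had no entry. The windows below lie on the plus strand, run 5′ to 3′ and stop at the base before the first annotated exon. They are chr16:23146286-23146535 for Adipoq, chr10:79890603-79890852 for Cfd, chr6:29059971-29060219 for Lep and chr6:115421816-115422065 for Pparg, the last being the start of the transcript Pparg-201. Capitals mark CCAAT on either strand and, in Lep, the C/EBP palindrome TTGCGCAA.
Adipoq: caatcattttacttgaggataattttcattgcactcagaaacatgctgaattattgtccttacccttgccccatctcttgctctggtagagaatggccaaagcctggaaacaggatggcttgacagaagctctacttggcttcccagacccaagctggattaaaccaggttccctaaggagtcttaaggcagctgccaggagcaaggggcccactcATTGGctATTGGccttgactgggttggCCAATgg
Cfd: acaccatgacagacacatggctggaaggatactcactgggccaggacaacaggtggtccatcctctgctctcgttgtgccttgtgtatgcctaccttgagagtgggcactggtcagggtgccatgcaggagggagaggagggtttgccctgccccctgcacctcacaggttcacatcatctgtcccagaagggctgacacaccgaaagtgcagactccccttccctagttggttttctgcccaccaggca
Lep: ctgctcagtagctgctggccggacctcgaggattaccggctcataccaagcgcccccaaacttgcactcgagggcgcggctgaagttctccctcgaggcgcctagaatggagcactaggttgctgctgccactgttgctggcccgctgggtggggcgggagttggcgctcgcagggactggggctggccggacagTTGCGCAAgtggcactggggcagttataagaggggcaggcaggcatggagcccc
Pparg: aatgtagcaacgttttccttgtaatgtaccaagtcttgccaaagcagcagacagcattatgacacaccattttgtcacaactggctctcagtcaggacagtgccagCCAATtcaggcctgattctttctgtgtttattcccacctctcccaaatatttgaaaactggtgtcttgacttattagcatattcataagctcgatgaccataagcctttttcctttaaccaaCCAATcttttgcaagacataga
Over the 250 bases before each start, both strands searched, CCAAT was in 4 of the 11 windows of member genes (Adipoq, Plin4 and 2 starts of Pparg) and in 33.8% of the 32851 windows of all genes. TTGCGCAA was in 1 of the 11, that of Lep, and in 0.164% of all windows. The nuclear receptor core AGGTCA was in 2, both of Pparg and both in stretches not printed here, against 14.0% of all windows. The direct repeat of that core with a single base between the copies, the form bound by PPAR-gamma with its partner, was in 0 of the 11 and in 0.0335% of all windows. None of the motifs searched was in the printed window of Cfd.

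The deposited values were CPM (reads per 1000000 reads counted in genes), and between 43679297 and 59170793 reads per sample were counted. Values were divided by size factors between 0.978 and 1.05 and are called rescaled CPM. Prostate epithelium markers were abundant in each sample, with Epcam between 747 and 1134 and Krt8 between 1536 and 2505 rescaled CPM, and 4 of 7 seminal vesicle genes had no read in any sample.

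The genes that mark fat cells most narrowly were low and differed more between samples of a group than between the groups. Adipoq, which encodes the hormone adiponectin (chromosome 16, 23146536 to 23158028), had 0 rescaled CPM in intact sample 1, 0.490 in intact sample 2 and 1.03, 1.27, 5.70 and 0.0323 in castrated samples 1 to 4. Castrated sample 3 was the highest, castrated sample 4 lay below intact sample 2, and the groups overlapped. In bulk tissue, fewer cells of a type and less RNA per cell cannot be told apart, here and in all results that follow. Cfd, which encodes adipsin, a complement protease secreted by fat cells (chromosome 10, 79890853 to 79892655), had the same order, with 0 and 4.69 rescaled CPM for the intact pair against 7.25, 8.71, 39.7 and 0.404 after castration. In reads this was 0 and 268 against 381, 485, 2258 and 25. The 0 of intact sample 1 came from 43679297 reads and allows up to 3 reads, or 0.0687 CPM, counting error only.

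Retn, which encodes resistin (chromosome 8, 3655770 to 3660110), was at 0 and 0.175 in the intact and at 0.437, 0.431, 3.18 and 0.0807 in the castrated samples. Lep, which encodes the satiety hormone leptin (chromosome 6, 29060220 to 29073877), was close to the limit of detection, with 0 and 2 reads in the intact and 1, 3, 14 and 1 in the castrated samples. Castrated sample 3 held the highest value of all 4 secreted products. Together they summed to 0 and 5.39 rescaled CPM in the intact samples and to 8.73, 10.5, 48.8 and 0.533 in the castrated samples.

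Of the lipid droplet genes, Plin1, which encodes the perilipin that guards the droplet of fat cells (chromosome 7, 79720218 to 79732903), was at 0 and 0.280 in the intact and at 0.0951, 0.197, 0.985 and 0.0161 in the castrated samples. Intact sample 2 thus lay above 3 of the 4 castrated samples. Cidec, which fuses small droplets into large ones (chromosome 6, 113424634 to 113435760), was at 0 and 0.280 against 0.609, 0.628, 3.24 and 0.0161. Plin4, a droplet coat gene of fat cells and muscle (chromosome 17, 56100591 to 56109803), was also present where the others had no read: 0.562 and 1.70 in the intact and 2.19, 2.73, 4.55 and 1.08 in the castrated samples. All 3 were highest in castrated sample 3 and overlapped between the groups. An antisense gene, Hdgfl2, covers 0.294% of the exon bases of Plin4, and the strand setting of the counting step is not known here. No other gene covers exon bases of the other 9 genes.

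Lpl, Fabp4 and Pparg were at several CPM in every sample. Lpl, the lipase that releases fatty acids from blood lipoproteins (chromosome 8, 68880491 to 68907448), was at 11.4 and 18.0 in the intact and at 31.1, 32.2, 46.4 and 23.8 in the castrated samples. Every castrated sample lay above both intact samples. Fabp4, the fatty acid carrier of fat cells (chromosome 3, 10204088 to 10208576), was at 6.74 and 6.24 in the intact and at 34.6, 9.89, 33.4 and 6.72 in the castrated samples. Castrated samples 1 and 3 were high, castrated sample 2 was a little above the intact pair and castrated sample 4 lay between the intact samples. Pparg (chromosome 6, 115360951 to 115490399) was at 8.76 and 14.0 in the intact and at 21.5, 19.6, 20.3 and 37.4 in the castrated samples. Its groups did not overlap, and its highest value was in castrated sample 4, where 9 of the 10 genes were at their lowest among castrated samples. The counts are per gene and do not separate the transcripts of Pparg.

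**Figure D1:**
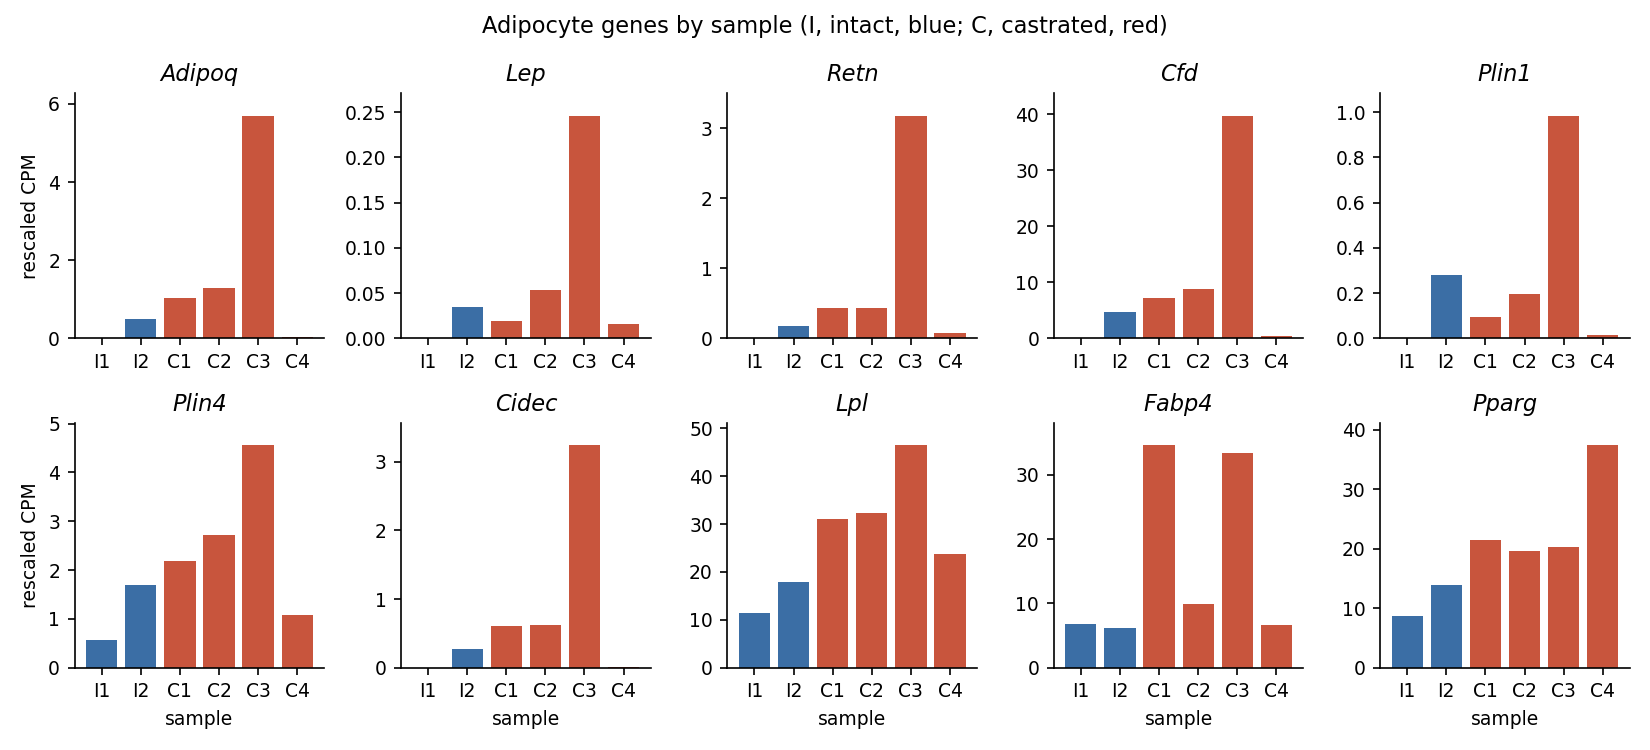
Rescaled CPM of each adipocyte gene (vertical axis, from 0) in intact samples 1 and 2 (I1, I2, blue bars) and castrated samples 1 to 4 (C1 to C4, red bars), 1 bar a sample. Most panels, 8 of 10, peak in C3, Fabp4 peaks in C1 and Pparg in C4, and only Lpl and Pparg have every red bar above both blue bars.

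Per kilobase of the exons of coding transcripts, Fabp4 was the highest of the 10 in the intact group at 7.25 rescaled CPM per kilobase, followed by Pparg at 4.44, Lpl at 3.57 and Cfd at 2.54. The other 6 were below 0.2 on this scale. In the castrated group the order was Fabp4 at 23.6, Cfd at 15.2, Pparg at 9.64, Lpl at 8.12 and Adipoq at 1.45, with the other 5 below 1. The ranges of the first 4 overlapped among castrated samples, so their order is not fixed beyond the spread: Cfd led in castrated sample 3 at 43.1, Fabp4 in castrated sample 1 at 38.6 and Pparg in castrated sample 4 at 14.6. Lep was the lowest of the 10 in both groups.

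Tests used limma on genes that reached 1 CPM in 2 or more samples, with log2(rescaled CPM + 0.5), castrated minus intact, and Benjamini-Hochberg adjustment over 13898 genes. Retn, Plin1, Cidec and Lep did not reach that level and were not tested, leaving 6 of the 10. Adipoq reached it in castrated samples alone, so the tested genes are not a neutral draw from the 10. Of the 6, 0 passed an adjusted p of 0.05, against 1.97% of all genes tested (0.698% higher in castrated samples). The difference of Lpl was 2.22-fold, a log2 difference of 1.15 with a standard error of 0.29 and a 95% interval of 0.46 to 1.85 (limma unadjusted p = 0.00603, adjusted p = 0.112). For Pparg it was 2.10-fold, 1.07 with a standard error of 0.31 and an interval of 0.32 to 1.82 (unadjusted p = 0.0120, adjusted p = 0.157). These 2 were the tested genes at an unadjusted p under 0.05, a level that 7.84% of all genes reached with a higher castrated value. Without intact sample 1 the log2 differences of Lpl and Pparg fell to 0.83 and 0.75. Without castrated sample 4 that count was 6, but calls over all genes also rose, from 274 to 1057. The share of all genes at that unadjusted level in that fit is not given here. The 6 is therefore not read as a result about these genes. Lpl and Pparg were also the 2 whose groups did not overlap, as in 13.4% of all tested genes with higher castrated values and 26.6% in either direction.

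For the other 4 the interval of the log2 difference included 0. Cfd had the largest difference, 2.15 (interval -1.56 to 5.85, limma adjusted p = 0.58). Fabp4 had 1.31 with an interval of -0.35 to 2.97, Adipoq 1.30 with -0.87 to 3.47 and Plin4 0.92 with -0.31 to 2.15. Their adjusted p ranged from 0.43 for Fabp4 to 0.568 for Adipoq. The added 0.5 compresses low genes: edgeR, fitted to whole reads recovered from the CPM values, gave Adipoq a log2 difference of 2.95, and its adjusted p was 0.536. The median log2 difference of the 6 was 1.22, and that of all genes tested was 0.00. With no filter, all 10 genes entered and their median was 1.04, with Retn at 1.01, Cidec at 0.997, Plin1 at 0.27 and Lep at 0.16 (limma adjusted p from 0.61 to 0.851 for these 4).

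**Figure D2:**
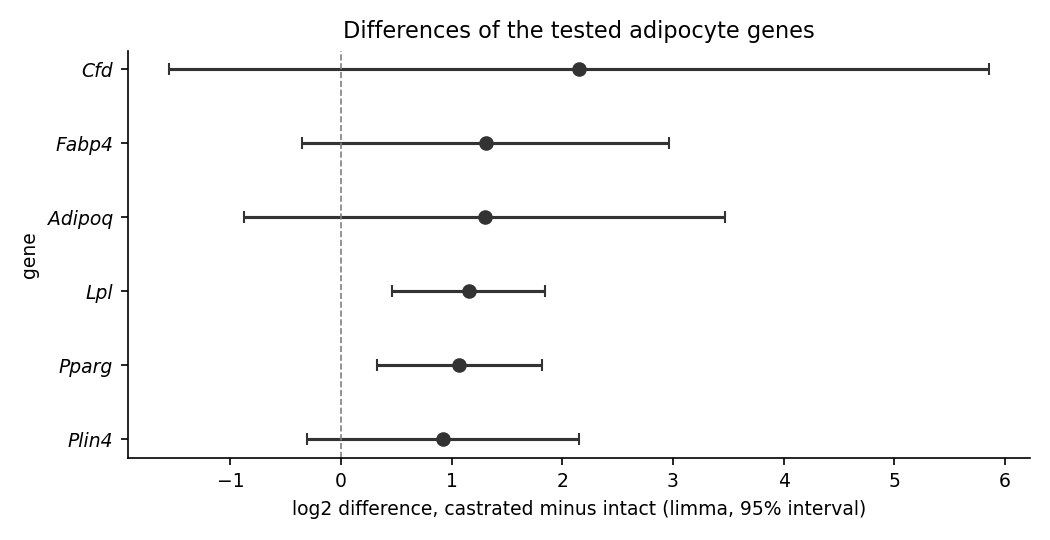
Log2 difference, castrated minus intact, of the 6 tested adipocyte genes (points) with its 95% interval from limma (bars), with the dashed line at 0. The intervals of Lpl and Pparg lie above 0, and those of Cfd, Fabp4, Adipoq and Plin4 cross it.

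edgeR called 0 of the 6, against 1.46% of all genes, and DESeq2 called 2, Lpl (adjusted p = 0.0048) and Pparg (adjusted p = 0.0225), against 9.3% of all genes, 4.76% called higher and 4.54% lower. Single samples decided several sizes. Without intact sample 1, in which 6 of the 10 genes had no read, the log2 difference of Cfd was 0.46, and without intact sample 2 it was 3.83. Adipoq went to 0.68 without castrated sample 3 and to 1.86 without castrated sample 4, and Plin4 to 0.39 without intact sample 1 and to 1.44 without intact sample 2. Fabp4 was at 0.97 when castrated sample 1 was left out and at 1.73 when castrated sample 4 was. Without castrated sample 4, Lpl passed the threshold (1.30, limma adjusted p = 0.0367). The difference of Pparg was smallest without intact sample 1, at 0.75. All 6 log2 differences were above 0 in each of these fits, as were 50.1% of all genes tested in the limma fit of all 6 samples. The fits share samples, so their agreement in sign is not separate support.

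**Figure D3:**
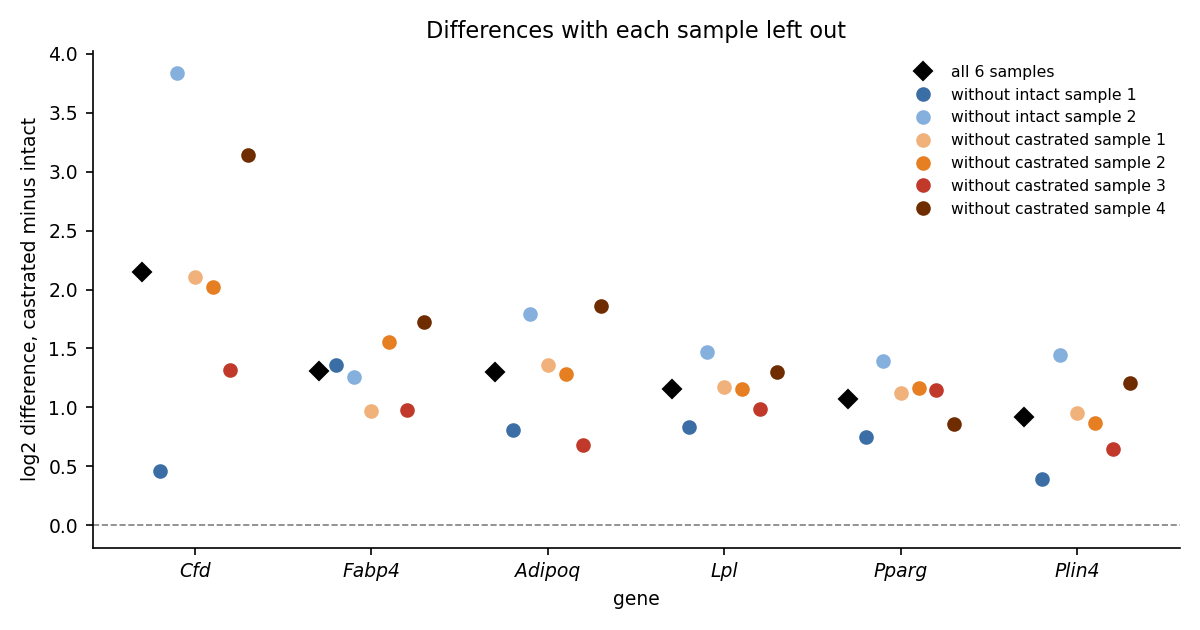
Log2 difference, castrated minus intact, of the 6 tested adipocyte genes with all 6 samples (black diamonds) and with each sample left out (circles, coloured by the sample left out). Cfd spreads from 0.46 to 3.83, while Lpl and Pparg stay between 0.75 and 1.47.

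Reads of different genes were compared within each library, where depth and scaling cancel. Cfd, the narrow fat cell gene with the most reads, was the denominator, and intact sample 1 had no Cfd read and gave no ratio. Adipoq had 10.4 reads per 100 Cfd reads in intact sample 2 (exact 95% binomial interval 6.81 to 15.4) and 14.2, 14.6 and 14.3 in castrated samples 1 to 3 (the last 12.7 to 16.1), while the level of Cfd itself differed between 4.69 and 39.7. Castrated sample 4 had 2 Adipoq and 25 Cfd reads, a ratio of 8 (0.918 to 32.1). Cidec was at 5.97, 8.40, 7.22 and 8.15 reads per 100 Cfd reads in intact sample 2 and castrated samples 1 to 3. The intervals of Adipoq overlapped across these 5 libraries, and so did those of Cidec.

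Retn was at 3.73 (1.77 to 6.97) in intact sample 2 and at 8.02 (6.85 to 9.33) in castrated sample 3, with intervals that just met. Plin1 differed: it was at 5.97 (3.36 to 9.88) in intact sample 2 and at 1.31 (0.424 to 3.09), 2.27 (1.12 to 4.09) and 2.48 (1.87 to 3.23) in castrated samples 1 to 3. The intervals of intact sample 2 and of castrated samples 1 and 3 did not meet. The more widely active genes did not keep 1 ratio either. Lpl ran from 117 reads per 100 Cfd reads in castrated sample 3 to 5896 in castrated sample 4, Pparg from 51.2 to 9260 in the same samples and Fabp4 from 84.2 to 1664. Plin4 was at 36.2, 30.2 and 31.3 in intact sample 2 and castrated samples 1 and 2, at 11.5 in castrated sample 3 and at 268 in castrated sample 4. These intervals cover counting error only.

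**Figure D4:**
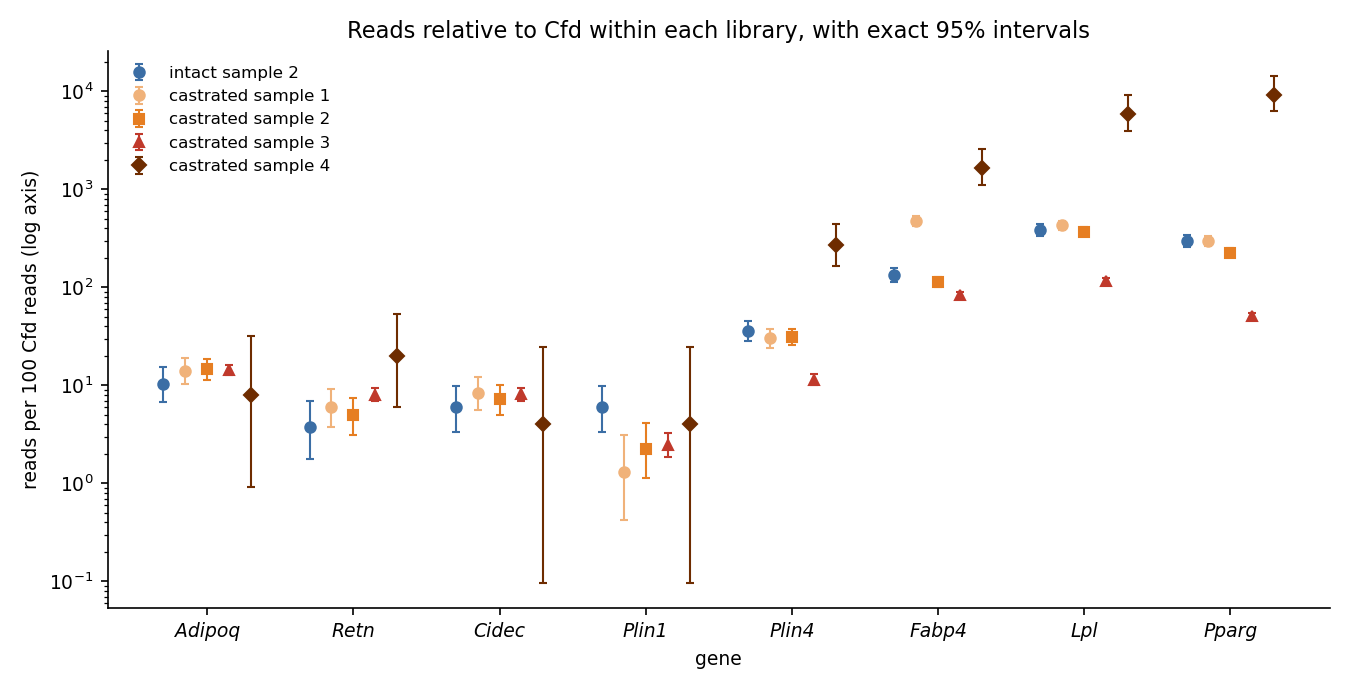
Reads of each gene per 100 Cfd reads of the same library (log axis) with exact 95% binomial intervals, in intact sample 2 and castrated samples 1 to 4; intact sample 1 had no Cfd read. Adipoq and Cidec lie level across libraries within their intervals, and Lpl, Fabp4, Pparg and Plin4 run highest in castrated sample 4, up to 9260.

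Another 67 fat cell genes were listed by role, 56 of which were tested, and 1 passed the limma threshold, against 1.97% of all genes. This was Lpin1, a phosphatidate phosphatase of triglyceride synthesis, which fell 1.72-fold, from 29.2 and 32.2 in the intact to 17.1, 16.8, 19.9 and 16.7 in the castrated samples (limma adjusted p = 0.0395, edgeR adjusted p = 0.0372). Leaving out single samples ended its call in 5 of 6 fits (limma adjusted p from 0.0751 without castrated sample 3 to 0.262 without intact sample 2) and held without castrated sample 4. At an unadjusted p under 0.05, 12 of the 56 were higher and 6 lower, against 15.9% of all genes in either direction. DESeq2 called 8 higher and 4 lower, against 9.3% of all genes. These 2 shares are the background for the counts in the lists that follow. The median log2 difference of the 56 was -0.01. These lists are not restricted to narrow fat cell genes. The 67 summed to 5953 rescaled CPM in intact sample 1, where Adipoq and Cfd had no read. They summed to 5829 in intact sample 2 and to 4893 to 6059 in the castrated samples. Most of the sum of intact sample 1 came from the stromal progenitor genes, at 4284, with Ly6a alone at 2682. How much of these values, that of Lpin1 included, comes from fat cells was not tested.

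Of 10 transcription factor genes of fat cell differentiation, all tested, 0 passed limma, edgeR or DESeq2, and 1 had an unadjusted p under 0.05. Cebpb, an early factor, was at 37.5 and 24.5 in the intact and at 40.1 to 45.9 in the castrated samples, Klf15 at 6.74 and 7.92 against 1.68 to 6.60, and Srebf1, a lipid synthesis regulator, at 270.3 and 288 against 201 to 262. Cebpa, a C/EBP factor gene, named after its values were seen, had 49.4 and 40.4 in the intact samples against 26.2, 50.1, 27.9 and 58.4 in castrated samples 1 to 4. It was low in castrated sample 3, where Adipoq was highest.

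Of 16 other storage and release genes, 15 were tested, and Lpin1 was the 1 call of limma and of edgeR, while DESeq2 called 3 higher and 1 lower. Pck1, which supplies glycerol for triglyceride in fat cells, was named after its values were seen: it had 0 and 5 reads in the intact and 92, 58, 171 and 13 in the castrated samples, with a limma adjusted p of 0.255 and a DESeq2 adjusted p of 0.00272. It reached 1 CPM in castrated samples alone, so that it had to differ to be tested. Of 10 other uptake genes, all tested, 0 passed limma or edgeR, with 2 higher and 3 lower at an unadjusted p under 0.05, and DESeq2 called 2 higher, Cd36 among them, and 1 lower, Cav1. Cd36, a fatty acid transporter of fat cells, macrophages and capillaries, was at 4.80 and 7.38 against 10.6 to 14.1 (limma adjusted p = 0.0901, and 0.0493 without castrated sample 4). Cav1, the caveola protein of fat cells and endothelium, was at 34.1 and 32.5 against 18.4 to 24.8, and Slc2a4, the insulin-dependent glucose transporter, at 7.26 and 8.57 against 4.24 to 5.72. Gpihbp1, the capillary anchor of the Lpl protein, named after its values were seen, was at 2.60 and 4.35 in the intact and 1.99 to 3.36 in the castrated samples.

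Of 15 other genes typical of fat cells, 9 were tested and 0 passed limma or edgeR, with 3 at an unadjusted p under 0.05. DESeq2 called Itih5 higher (adjusted p = 0.0257) and Thrsp lower (adjusted p = 0.0218). Thrsp, a lipogenic gene, was at 1.97 and 3.64 against 0.452 to 1.07, Itih5 at 11.4 and 14.5 against 18.3 to 32.8, and the amine oxidase gene Aoc3 at 1.47 and 3.04 against 3.36 to 4.13. Car3, a carbonic anhydrase abundant in fat and skeletal muscle, named after its values were seen, had the order of Cfd: 0 and 3.13 in the intact and 4.70, 6.57, 17.1 and 0.274 in the castrated samples. Of 8 brown and beige fat genes, 5 were tested and 0 passed limma or edgeR, with 3 at an unadjusted p under 0.05. DESeq2 called 2 higher, Cox8b (adjusted p = 0.00214) and Dio2 (adjusted p = 0.0411). Their defining gene Ucp1, the uncoupling protein, had 2 reads over all 6 samples, and Elovl3 had none. Cox8b, a cytochrome oxidase subunit of brown fat and muscle, had 1 read over the intact and 197 over the castrated samples (limma adjusted p = 0.169), and like Pck1 it passed the filter through castrated samples alone. Prdm16 was at 4.96 and 4.53 against 5.60 to 10.1, and the deiodinase gene Dio2 was at 6.88 and 1.35 against 7.66 to 34.3.

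Of 8 stromal progenitor genes, 7 were tested and 0 passed limma or edgeR, with 1 at an unadjusted p under 0.05, Ly6a, which DESeq2 called lower (adjusted p = 0.0481). Ly6a was at 2682 and 2442 in the intact and at 1529 to 2218 in the castrated samples. That is near the level of the epithelium marker Krt8, 1536 to 2505 over the 6 samples. Which cells the Ly6a reads came from was not tested. Dpp4 was at 45.2 and 45.4 against 36.0 to 92.7, and Cd34 at 38.3 and 39.5 against 28.2 to 45.3.

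Markers of other cell types that can carry Lpl, Fabp4 or Pparg were summed in each sample. The 12 macrophage markers summed to 907 and 732 rescaled CPM in the intact and to 646, 643, 705 and 976 in the castrated samples. The 10 endothelial markers summed to 180 and 167 and to 108, 109, 106 and 176. Both sums were highest among castrated samples in castrated sample 4, where Pparg was highest and Fabp4 lowest, and neither was raised in castrated samples 1 and 3, where Fabp4 was high. The 8 smooth muscle markers summed to 264 and 268 and to 483, 525, 330.1 and 426, higher in every castrated sample, as were Lpl and Pparg. Among castrated samples the order differed. The smooth muscle sum was lowest in castrated sample 3, where Lpl was highest, and highest in castrated sample 2, where Pparg was lowest. No marker of these 3 lists was without reads in all 6 samples. The 9 prostate epithelium markers summed to 5819 and 5432 in the intact and to 5429, 5616, 4759 and 4494 in the castrated samples. The part of all these cells in the values of Lpl, Fabp4 and Pparg was not tested. Of the 11 macrophage, 10 endothelial and 8 smooth muscle markers tested, limma and edgeR called 0, with 3, 4 and 5 at an unadjusted p under 0.05, against 15.9% of all genes. DESeq2 called 2 macrophage markers higher and 1 lower, 1 endothelial marker lower and 5 smooth muscle markers higher, against 9.3% of all genes.

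**Figure D5:**
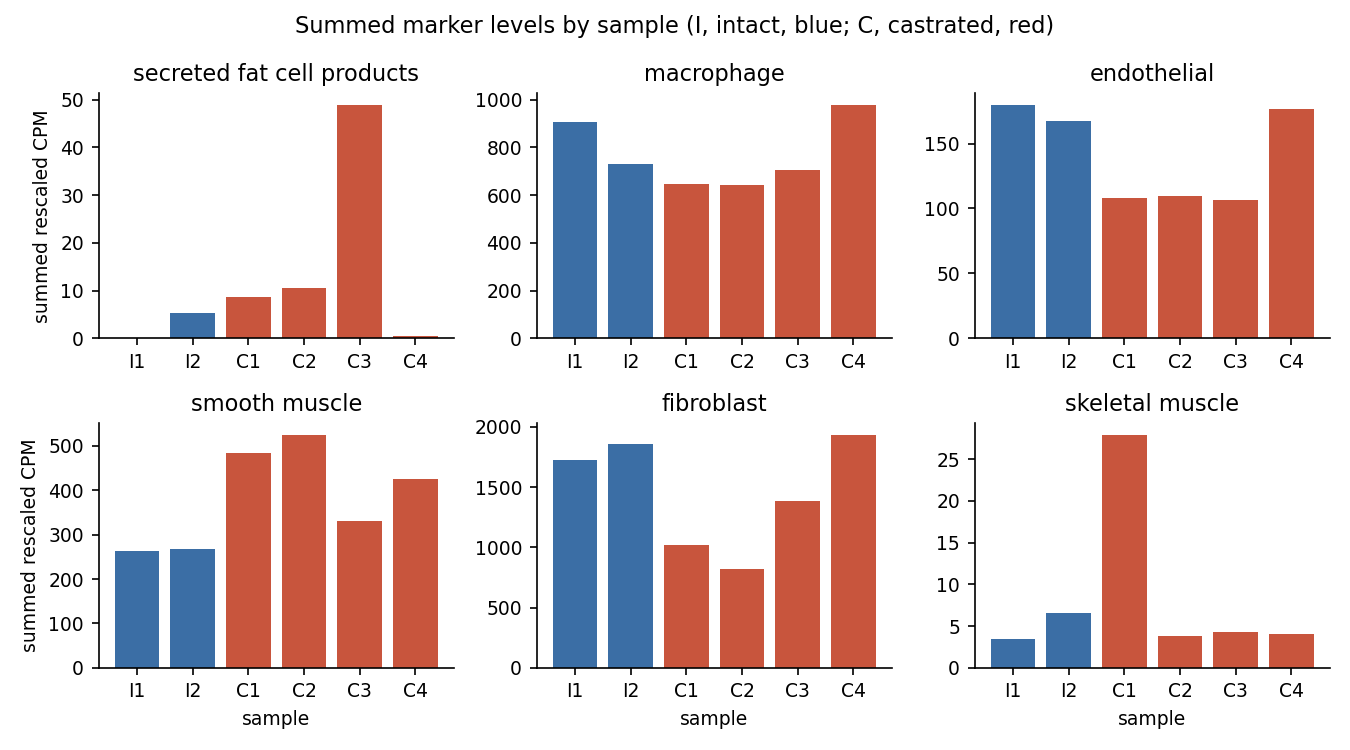
Summed rescaled CPM (vertical axis, from 0) of 6 marker lists in intact samples (I1, I2, blue bars) and castrated samples (C1 to C4, red bars). The secreted fat cell products peak at 48.8 in C3, the endothelial sum is lowest in C1 to C3 at 106 to 109, and the skeletal muscle sum stands out at 27.9 in C1.

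The genes with the pattern most like that of the tested adipocyte genes were ranked by Pearson correlation over the 6 samples with the mean of their standardised log2 values, among 11141 genes with a mean of at least 5 rescaled CPM and a symbol other than a Gm or Rik clone name. The first 10 were Fmn1 (r = 0.998), Pkhd1 (0.997), Agpat9 (0.991), Thrb (0.989), Pgm2l1 (0.989), Cpeb1 (0.988), Lpcat3 (0.986), Sowahb (0.982), Rab3gap1 (0.981) and Cadps (0.977). With 6 points from libraries that share 2 groups, and so many genes ranked, these values are a description only. Fmn1, a formin gene, was at 27.6 and 34.8 in the intact and at 44.4, 43.0, 54.3 and 34.7 in the castrated samples. Cadps was at 1.43 and 13.9 against 56.9, 33.8, 109.7 and 17.8. None of the 10 was without reads in intact sample 1, unlike Adipoq, Cfd, Retn, Cidec, Plin1 and Lep. The required mean of at least 5 rescaled CPM made a gene without reads there unlikely to be ranked. The contrast thus follows in part from that filter.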

How the data were processed

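RNA-seq of 6 mouse prostate samples, 2 intact and 4 castrated as labelled, was used. The authors deposited 1 table of CPM per sample with 24421 gene symbols, and each table sums to 1000000. TopHat2, HTSeq, edgeR and the build mm10 are named without settings, per the submitters' processing notes. In every library each value (100%) divided by the library's lowest nonzero value gave a whole number (tolerance 1e-06), so whole reads were recovered.

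CPM was divided by median-of-ratios size factors and tested with limma 3.58.1 (R 4.3.3, mean-variance trend) on log2(value + 0.5), with a filter of at least 1 CPM in at least 2 samples and a two-sided adjusted p of 0.05. Fold changes on this scale understate the change of low genes. On those reads the quasi-likelihood test of edgeR 4.0.16 called 203 genes and DESeq2 1.42.0 called 1293. The fits were tested on simulated counts. Other pseudocounts, filters, scalings, weights, a replicate block and single samples left out were tried.

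The 10 genes and the lists were chosen with earlier results of these data known. The text names all 10, the called genes of each other fat cell list or else the 3 with the smallest p, and the 10 genes most like the set. Other names are said to be chosen after their values were seen, or serve as tissue checks. Some items are not reported here. Markers of fibroblasts and nerve were not called in limma, and skeletal muscle and seminal vesicle sums are given as values. Gene positions are from GENCODE M21 (GRCm38, the assembly mm10 names). Cavin1 and Trarg1 were matched through their older symbols.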

Additional observations from a re-analysis of the deposited data

Results flagged for a closer look

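In the 4 castrated samples, 41 genes and summed lists were screened with Dixon's ratio, the gap of an extreme sample to its neighbour over the range, against its 95% critical value. For independent, normally spread values chance passes about 1 in 20 groups, and 7 passed here. The values were unlogged rescaled CPM and most adipocyte genes vary together, so that rate may not hold. Retn (0.885) and Lep (0.836) stood out as high in castrated sample 3, the latter on 14 reads. Lpin1 was also highest there (0.897). Pparg stood out as high in castrated sample 4 (0.897), and so did the summed endothelial markers (0.958). In castrated sample 1, Cav1 (0.936) and the summed skeletal muscle markers (0.983) were high.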

How the results depend on the processing

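The log2 differences of the 6 tested adipocyte genes stayed above 0 under each of the 17 or 18 alternatives in which each was tested, and 4 of the 6 never passed the threshold. The alternatives share samples, so they are not separate support for a direction. The count of called adipocyte genes, 0, became 1 with array weights (Lpl, limma adjusted p = 0.0365) and 2 in DESeq2, and ranged from 0 to 1 with 1 sample left out, the 1 being without castrated sample 4. Their median of 1.22 ranged from 0.78 (without intact sample 1) to 1.51 (without castrated sample 4). The count of other fat cell genes, 1, became 0 with no filter and with CPM as deposited (Lpin1 adjusted p = 0.0607 and 0.0501), 5 with array weights, 2 with the replicate block (both higher, Lpin1 no longer among them at an adjusted p of 0.0717) and 12 in DESeq2, and ranged from 0 to 8 with 1 sample left out. Over all genes the count of 274 became 170 with no filter, 954 with array weights, 417 with the replicate block and 1293 in DESeq2, and ranged from 1 (without intact sample 2) to 1057 (without castrated sample 4) with 1 sample left out, being 9 without intact sample 1, 77 without castrated sample 1, 83 without castrated sample 2 and 46 without castrated sample 3. Left-out fits with 1 intact sample assume that it varies as the castrated samples do. The cause of these shifts was not tested. The labels do not say whether samples with the same number are paired. Same-numbered deviations correlated at 0.0754 for number 1 and 0.226 for number 2. With 2 intact samples their deviations mirror each other, so these correlations cannot decide whether samples are paired. In the replicate block fit castrated samples 3 and 4 have no partner and take no part in the difference. There 0 adipocyte genes were called, with 5 of 6 at an unadjusted p under 0.05. Calls over all genes rose too, from 274 to 417, and the share of all genes at that unadjusted level in that fit is not given here. The 5 are therefore not read as a result about the adipocyte genes. The narrow fat cell genes lie near the depth limit in intact sample 1 and castrated sample 4.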

Other observations

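Fabp5, which encodes a fatty acid carrier related to Fabp4 and is also active in epithelium and macrophages, was chosen after its values were seen. It had 58.5 and 52.1 rescaled CPM in the intact and 301, 150.1, 208 and 59.2 in the castrated samples. Its adjusted p was 0.292 in limma, 0.232 in edgeR and 0.0130 in DESeq2. As with Fabp4, castrated samples 1 and 3 were the highest and castrated sample 4 lay close to the intact samples. The summed skeletal muscle markers were at 3.51 and 6.59 in the intact samples and at 27.9, 3.86, 4.27 and 4.02 in the castrated samples. Castrated sample 1, highest for skeletal muscle markers, was thus not the sample highest for the narrow fat cell genes.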
